A study of Mus musculus with 2 samples.

Results

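The proteasome genes were read in total RNA of tissue labelled layer of hippocampus, from 2 males of strain B6CASTF1/J, aged 8 to 10 months. These adult mice are offspring of a cross between the inbred strains C57BL/6J and CAST/EiJ. Each animal gave 1 strand-preserving, ribosomal RNA-reduced library from 300 ng of RNA with ERCC spike-ins, which are synthetic control RNAs. Replicate 1 was animal 2 and replicate 2 was animal 4, with the same donor entry in the labels. The labels name no treatment and no transgene, so both libraries form 1 group and no conditions were compared. A gene was counted as a member where its symbol began with Psm, a letter from a to g and a digit, and where at least 1 of its annotated transcripts was of the class protein_coding. This gave 50 genes of 55536 annotated genes, or of 21901 genes with a protein_coding transcript. The rule itself uses no expression value. Another 4 genes matched by symbol but had no protein_coding transcript. They are processed pseudogenes of Psmb5, Psmb6 and Psmb7, and all were at 0 counts in both libraries by the first of 2 quantifiers. The second gave 0.072 TPM to the Psmb5 pseudogene in replicate 2.

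The proteasome is the protease that removes most short-lived and damaged proteins of a cell after these have been tagged with ubiquitin. Its 20S core is a barrel of stacked rings: alpha subunits form the outer rings and gate the entry, and beta subunits form the inner rings and carry the cutting sites. A 19S cap binds the tagged protein, removes the ubiquitin, unfolds the chain with a ring of ATPases and feeds it into the core. In immune cells, or under interferon, the cutting subunits can be replaced by immunoproteasome forms that favour peptides for antigen presentation. In neurons, proteasomes are known to be present in axons and dendrites, and proteasome activity is needed for forms of synaptic plasticity and memory.

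The libraries held 23458117 and 29584307 expected counts, which are reads estimated per gene after shared reads are divided between features. Markers of the labelled tissue were present: 8 of 8 genes of hippocampal subfields and 5 of 5 of excitatory neurons were at 1 TPM or more in both libraries. TPM is a level per length of transcript and has an equal total in every library. The libraries differed in choroid plexus RNA, with 8 of 9 markers called higher in replicate 2 and a summed level of 17.9 against 1792 TPM. Their part in the values below was not tested.

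Most proteasome genes lay above the median detected gene in level. The members are 50 of 55536 annotated genes, or of 21901 with a protein_coding transcript. They took 43463 of the annotated counts in replicate 1, a share of 0.186% (95% Wilson interval 0.184 to 0.187%), and 59822 in replicate 2, a share of 0.203% (0.201 to 0.204%). The mean share was 0.194% ± 0.0120 (SD, n = 2), and the intervals of the 2 libraries did not overlap. Counted by TPM, the members held 0.237% in replicate 1 and 0.241% in replicate 2. Such intervals cover counting error only, because the reads carry no molecular identifiers. Of the 50 members, 47 were at 1 TPM or more in both libraries. The median member was at 53.2 TPM, which lay at percentile 82.8 of the 12999 detected genes with a protein_coding transcript, whose own median was 17.5 TPM. In all, 37 members were at or above that gene median, and 8 lay at or above percentile 90. Of the 31 constitutive subunits of core and cap, 28 lay at or above percentile 80.

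**Figure D1:**
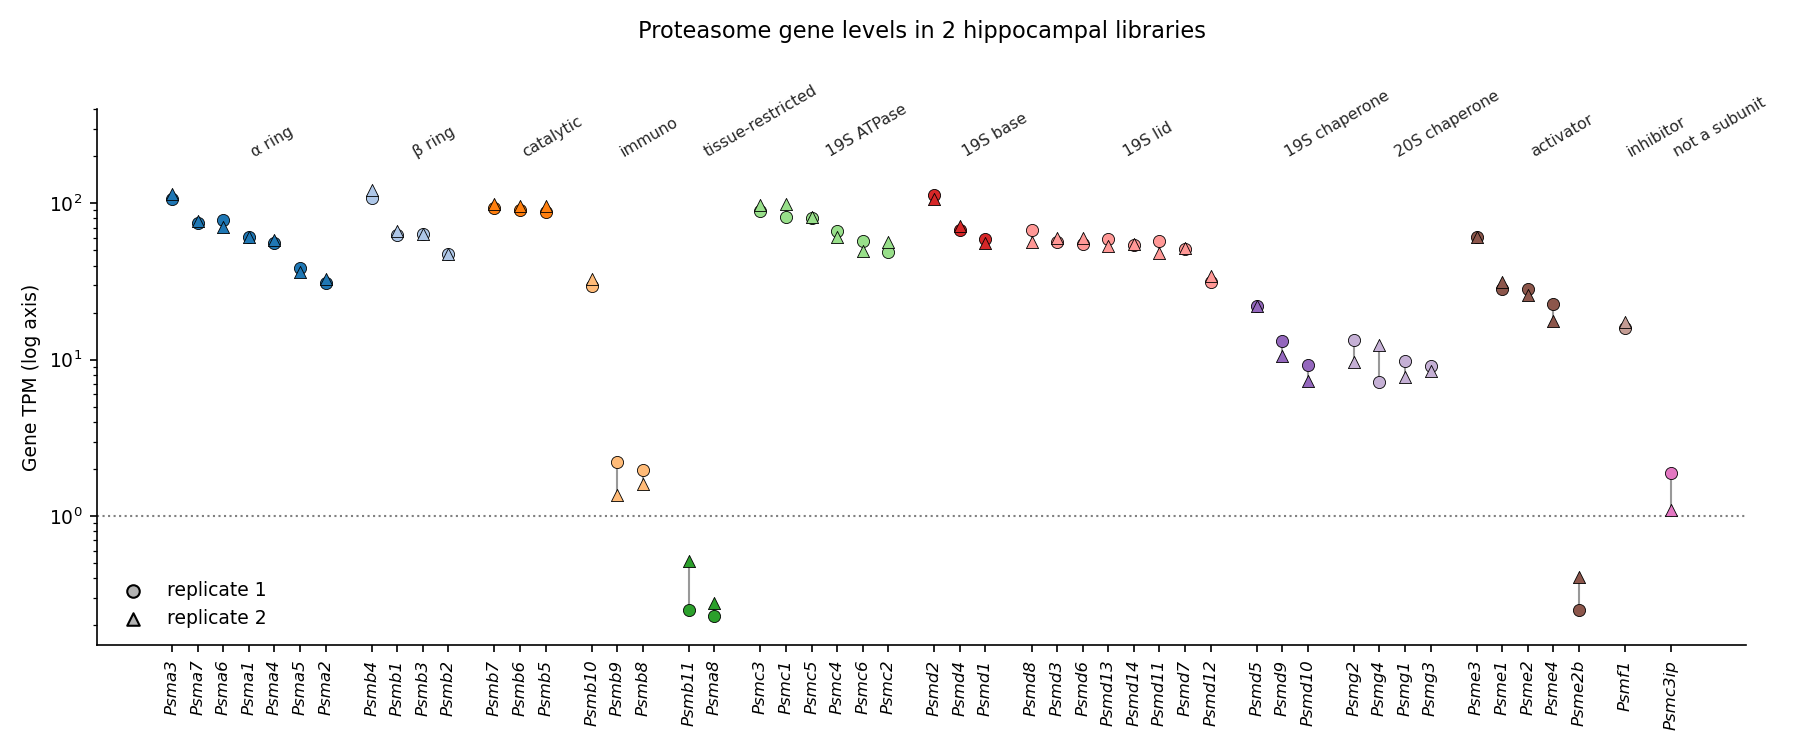
Gene level in TPM (log axis) of the 50 proteasome genes, grouped by role and ordered by mean level within each role. Circles are replicate 1, triangles replicate 2, a line joins the libraries of a gene, and the dotted line marks 1 TPM. Constitutive core and cap subunits among these genes sit between 31.8 and 115 TPM by their means, and the assembly chaperones lie lower. Psmb8 and Psmb9 are near 1.8 TPM, and Psma8, Psmb11 and Psme2b are below 1 TPM.

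The 31 constitutive subunits of core and cap that carry a Psm symbol lay close together in level. Their mean TPM had a coefficient of variation (SD over mean, across genes) of 32.7%, with 31.2% in replicate 1 and 34.6% in replicate 2. On the log2 scale, the SD across these genes was 0.48, against 1.83 over all detected genes with a protein_coding transcript. The 14 constitutive core genes had a median of 69.6 TPM and a range of 31.8 to 115 TPM. The 17 cap genes had a median of 57.4 TPM and a range of 32.9 to 110 TPM. Sem1, a lid part named otherwise, was below that range at 17.2 TPM. The order within the band of the 31 was mostly not resolved. Over all 50 members ranked by mean TPM, the deposited TPM bounds, which carry counting and assignment error but no spread between animals, lay apart in both libraries at 2 of 49 steps from one gene to the next.

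The 7 constitutive alpha-ring genes, whose products form the gated outer rings, spanned 3.47-fold. The highest was Psma3, at 106 TPM in replicate 1 and 114 TPM in replicate 2 (110 ± 5.72, SD, n = 2, as for all levels). The 2 quantifiers divided the reads of Psma3 differently between its transcripts, and its level by the second was 148 TPM. On protein_coding transcripts alone, Psma3 was at 81.65 TPM in replicate 1 and 66.2 TPM in replicate 2. Psma6 was there at 74.5 and 69.1 TPM, above Psma3 in replicate 2. The lowest was Psma2, at 30.9 and 32.7 TPM (31.8 ± 1.29). By gene TPM, both libraries placed Psma3 above the other alpha genes, and its bounds lay above those of Psma7, the next gene, in each. Between these, Psma7 (75.9 ± 1.37) and Psma6 (74.4 ± 4.79) did not separate by their bounds, nor did Psma1 (60.9 ± 0.141) and Psma4 (56.9 ± 1.59), nor Psma5 (37.4 ± 1.75) and Psma2.

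Among the 4 beta-ring genes without a cutting site, Psmb4 stood highest. It reached 108 TPM in replicate 1 and 122 TPM in replicate 2 (115 ± 10.3), the highest mean of all 50 members by the first quantifier, with bounds that overlapped those of Psma3. The second quantifier put it at 131 TPM, below Psma3 at 148, and on protein_coding transcripts alone it was at 74.2 TPM, below Psmd2 at 103. Its product is a structural beta subunit of the core. Psmb1 (64.7 ± 2.79 TPM) and Psmb3 (64.0 ± 0.134) overlapped in their bounds, and Psmb2 was lowest of this group at 47.7 and 47.1 TPM (47.4 ± 0.410). Psmb2 lay below Psmb3 by the bounds of both libraries.

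The 3 constitutive cutting subunits were the most even group. Psmb5, which carries the chymotrypsin-like site, was at 87.9 TPM in replicate 1 and 95.7 TPM in replicate 2 (91.8 ± 5.52). Psmb6, which carries the caspase-like site, was at 90.2 and 96.1 TPM (93.2 ± 4.13). Psmb7, which carries the trypsin-like site, was at 93.5 and 98.8 TPM (96.1 ± 3.77). The bounds overlapped at both steps between them, and their coefficient of variation was 2.34%. By the second quantifier it was 10.7%, with Psmb7 at 86.7 ± 3.03 TPM above Psmb5 at 73.1 ± 2.29 and Psmb6 at 71.7 ± 0.639.

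On mm10, Psmb5 spans chr14:54614119-54618022 on the minus strand, Psmb6 chr11:70525367-70527858 on the plus strand and Psmb7 chr2:38588036-38644087 on the minus strand. Their immune counterparts are Psmb8 at chr17:34197721-34201454 on the plus strand, Psmb9 at chr17:34181987-34187764 on the minus strand and Psmb10 at chr8:105935735-105938444 on the minus strand. The start regions of Psmb5, Psmb6 and Psmb10 are shown as those of cutting subunits whose RefSeq start lies within 100 bases of the start used for the counts; Psmb7 had no window. The windows run from 250 bases before to 50 bases after the RefSeq start site, in the RefSeq annotation of GRCm38.p6. Psmb5 lies at chr14:54617946-54618245 on the minus strand, Psmb6 at chr11:70525107-70525406 on the plus strand and Psmb10 at chr8:105938343-105938642 on the minus strand. Capitals mark every match on either strand to the 7 motifs listed further on. In Psmb5 this is TGACGTCGC, a match to the antioxidant response element TGACNNNGC, which NFE2L1 and NFE2L2 bind. In Psmb6 it is TGACGGAGC, a match to the same motif, and CCGCCC, the reverse complement of the SP1 motif GGGCGG. The Psmb10 window held none of the 7.
Psmb5: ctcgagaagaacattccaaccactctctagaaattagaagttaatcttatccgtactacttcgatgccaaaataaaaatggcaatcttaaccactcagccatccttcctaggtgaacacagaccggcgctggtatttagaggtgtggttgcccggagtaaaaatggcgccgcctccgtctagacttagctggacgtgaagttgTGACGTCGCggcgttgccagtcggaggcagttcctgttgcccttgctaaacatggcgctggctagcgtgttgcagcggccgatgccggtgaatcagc
Psmb6: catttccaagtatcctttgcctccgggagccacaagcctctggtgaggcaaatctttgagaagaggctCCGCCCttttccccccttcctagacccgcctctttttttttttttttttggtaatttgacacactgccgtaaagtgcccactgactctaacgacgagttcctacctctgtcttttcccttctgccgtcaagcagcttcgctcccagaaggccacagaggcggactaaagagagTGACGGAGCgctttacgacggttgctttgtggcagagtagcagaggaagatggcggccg
Psmb10: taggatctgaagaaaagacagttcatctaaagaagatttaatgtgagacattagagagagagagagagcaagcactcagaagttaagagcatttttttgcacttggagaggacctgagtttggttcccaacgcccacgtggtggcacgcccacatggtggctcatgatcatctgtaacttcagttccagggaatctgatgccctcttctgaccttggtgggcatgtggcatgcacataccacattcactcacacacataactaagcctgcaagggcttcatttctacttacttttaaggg

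The 3 immunoproteasome cutting subunits were unequal in level. Psmb8, the counterpart of Psmb5, was at 1.96 TPM in replicate 1 and 1.60 TPM in replicate 2 (1.78 ± 0.255), from 22 and 29 counts. Psmb9, the counterpart of Psmb6, was at 2.21 and 1.36 TPM (1.79 ± 0.601), from 21 counts in each library. Psmb10, the counterpart of Psmb7, was at 29.5 and 33.0 TPM (31.2 ± 2.47), from 280 and 419 counts. Psmb10 was thus 15.0-fold and 20.6-fold above Psmb8 in replicates 1 and 2, and 13.3-fold and 24.2-fold above Psmb9. Its bounds lay above those of both in each library, whereas Psmb8 and Psmb9 overlapped each other.

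Against their constitutive counterparts, the immune forms were minor. Psmb8 was at 2.23% of Psmb5 in replicate 1 and 1.67% in replicate 2 (1.95% ± 0.394). Psmb9 was at 2.45% and 1.42% of Psmb6 (1.93% ± 0.731). Psmb10 was at 31.5% and 33.4% of Psmb7 (32.4% ± 1.30). The sum of the 3 immune genes was 12.4% of the sum of the 3 constitutive ones in both libraries. Most of the Psmb10 level, however, was assigned to transcripts that are not annotated as coding. With protein_coding transcripts alone, the summed ratio fell to 3.84% ± 0.0552, Psmb10 over Psmb7 to 8.37% ± 0.604, and Psmb8 over Psmb5 to 1.06% ± 0.0409, while Psmb9 over Psmb6 was 1.67% ± 0.435.

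**Figure D2:**
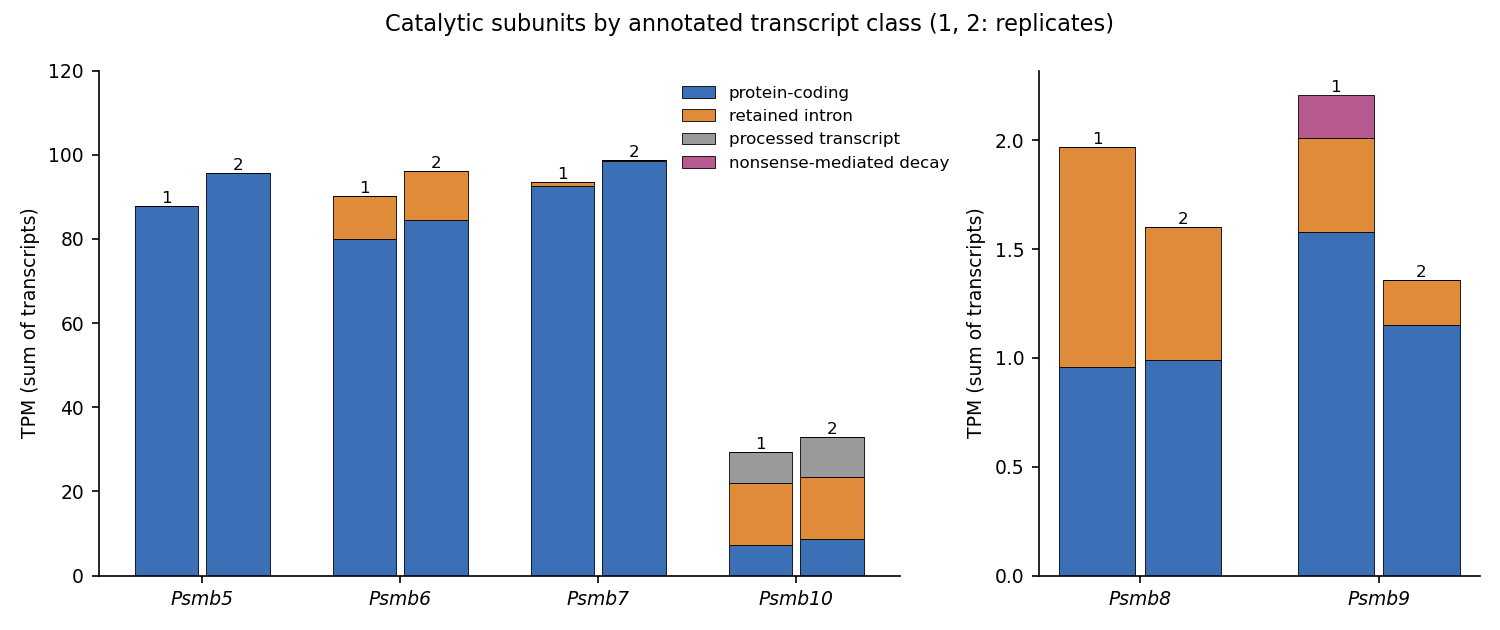
Level in TPM of the 6 cutting subunits as the sum of their transcripts, stacked by annotated transcript class, with 1 bar for each replicate; the right panel has its own scale for Psmb8 and Psmb9. Psmb5 and Psmb7 are almost wholly protein-coding and Psmb6 is so at 88.6% and 87.9%, whereas in Psmb10 the protein-coding part is 7.35 TPM in replicate 1 and 8.66 TPM in replicate 2.

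The single protein_coding transcript of Psmb10, of 1311 bases, was at 7.35 TPM in replicate 1 and 8.66 TPM in replicate 2, which is 24.9% and 26.3% of the gene. Transcripts annotated as retained intron, which keep an intron and have no annotated reading frame, held 14.6 and 14.8 TPM, and 1 processed transcript held 7.55 and 9.53 TPM. The leading one, Psmb10-205, is 554 bases long and the processed transcript is 426 bases long. TPM divides by length, so the same reads weigh more on these. Counted in reads, the protein_coding transcript held 44.8% and 47.6% of the gene. By the second quantifier it held 26.8% and 30.8% of TPM and 52.4% and 57.5% of reads. The 2 programs read the same libraries and are not replicates of each other.

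Psmb8 and Psmb9 were too low to resolve their transcripts. The full-length protein_coding transcript Psmb8-201 received 0 counts in both libraries from the first quantifier and 3.97 and 25.9 counts from the second, so the 0 is a division of shared reads and no limit on its level. The full-length Psmb9-204 received 5.16 and 10.2 counts. The leading Psmb9 transcript, Psmb9-202, is 433 bases long and incomplete in the annotation, and it held 58.4% and 52.9% of the gene's TPM. Psmb9 also overlaps Tap1, a peptide transporter gene on the opposite strand at 1.22 and 2.68 TPM. The library kit keeps the strand, but the sources used here do not say whether the counting used it.

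Markers of the cells that are known for immunoproteasome expression were also present. The 8 microglia markers summed to 182 TPM in replicate 1 and 197 TPM in replicate 2, and all 8 were at 1 TPM or more. The 6 endothelial markers summed to 85.9 and 78.4 TPM, and all 6 passed 1 TPM. The 14 genes listed for interferon response and antigen presentation summed to 139 and 141 TPM, of which the class I light chain B2m gave 51.6 ± 1.58. In these 14, Nlrc5, the activator of class I genes, was at 0.225 ± 0.163 TPM, and the interferon-induced Irf7 and Usp18 were at 0.395 ± 0.0354 and 0.115 ± 0.0778. In bulk tissue, few cells with a transcript and little of it in every cell cannot be told apart, so which cells carried Psmb8, Psmb9 and Psmb10 was not tested.

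Transcript classes of the members were set beside those of all genes with a protein_coding transcript. Protein_coding transcripts held 83.8% of the members' TPM in replicate 1 and 85.0% in replicate 2, against 81.7% and 85.1% over all such genes. Retained-intron transcripts held 11.0% and 9.48%, against 9.87% and 7.14%, and processed transcripts 3.71% and 2.61%, against 5.53% and 5.06%. By the second quantifier, the protein_coding share was 76.2% and 79.1% in members against 78.7% and 82.4%, and the retained-intron share 13.5% and 12.1% against 10.4% and 7.82%. In sum, the members thus held more of their TPM on retained-intron transcripts than genes at large, in both libraries and by both quantifiers. The difference was not tested, and a few genes weighed on the sum. By the first quantifier, retained-intron transcripts of Psmb4 gave 33.9 and 47.7 TPM and those of Psmc6 27.0 and 20.85 TPM. The share without these genes was not computed. The median member had 88.6% and 93.5% of its TPM on protein_coding transcripts. Members under 50% in both libraries were Psmb10, Psmc6, Psmd13 and Psmc3ip. By the second quantifier Psmb4 joined them, with 43.8% and 38.0%, against 68.5% and 61.0% by the first.

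**Figure D3:**
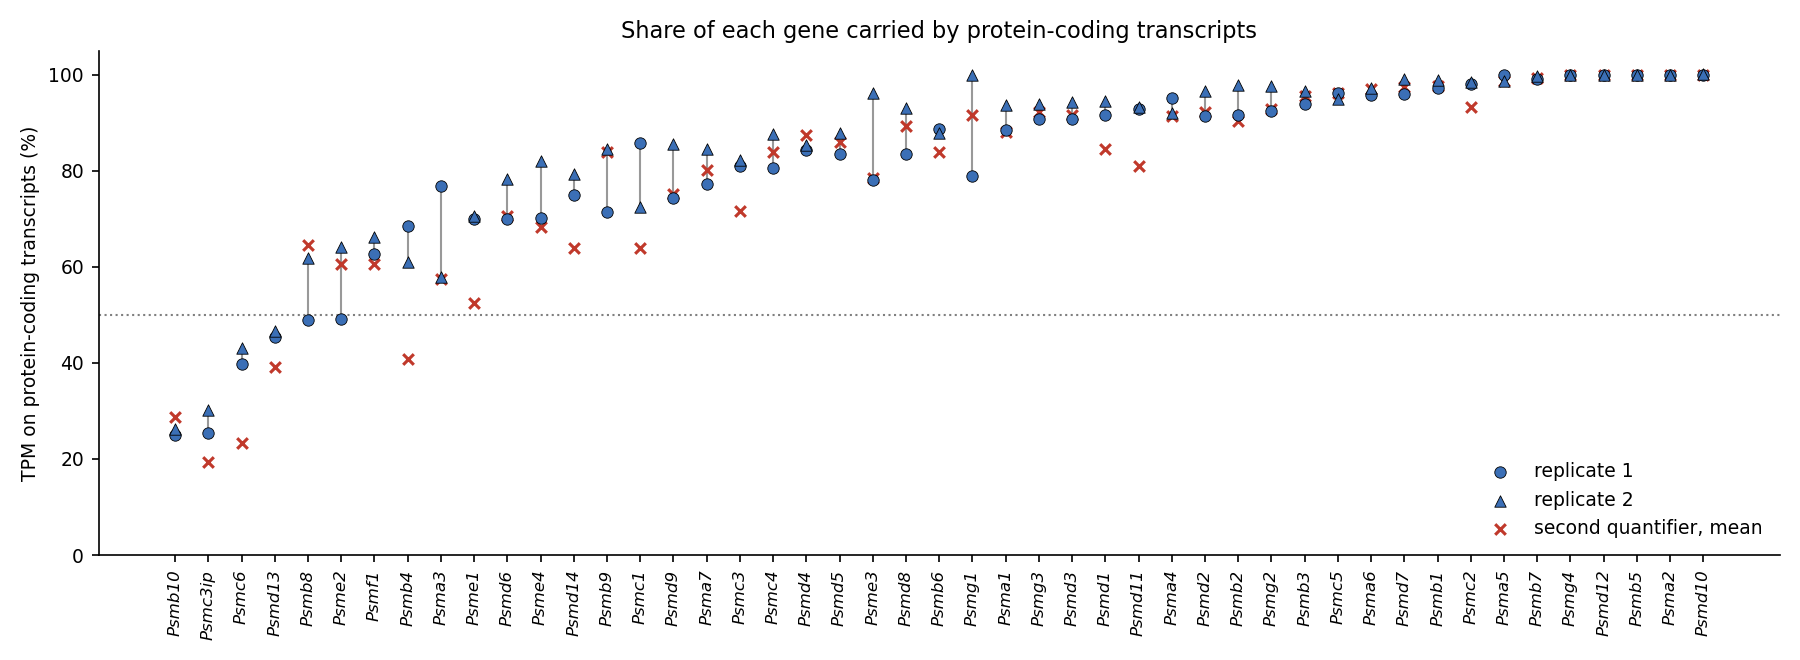
Percent of each gene's TPM on protein_coding transcripts for the 47 members at 1 TPM or more in both libraries, ordered by the mean of the replicates. Circles and triangles are replicates 1 and 2, crosses are the mean of the second quantifier, and the dotted line marks 50%. The genes run from Psmb10, at 24.9% and 26.3%, to several at or near 100%, and Psmb4 is the gene whose cross lies below the line while both replicates lie above it.

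Psmc6, an ATPase of the cap, had 39.9% and 43.1% of its TPM on its protein_coding transcript, and 24.1% and 22.4% by the second quantifier. In reads the first quantifier's share was 70.1% and 74.5%, because that transcript has 2234 bases and the others are shorter. Psmd13, a lid subunit, had 45.5% and 46.6% on protein_coding transcripts. A further 25.4% and 35.7% of Psmd13 was on Psmd13-211, a transcript of the class nonsense-mediated decay, whose early stop marks it for destruction. Psmd13 overlaps Sirt3 on the opposite strand, at 35.7 and 34 TPM.

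The 6 ATPases of the cap, which form the unfolding ring, had a median of 72.2 TPM. The highest was Psmc3, at 88.6 TPM in replicate 1 and 97.45 TPM in replicate 2 (93.0 ± 6.25). The lowest was Psmc2, at 48.8 and 56.6 TPM (52.7 ± 5.51), close to Psmc6 at 57.7 and 49.9 TPM (53.8 ± 5.52). The highest and the lowest differed 1.76-fold, and the bounds separated 1 of 5 steps, that from Psmc5 (80.8 ± 0.460) to Psmc4 (63.7 ± 3.42). Psmc1 was at 90.3 ± 12.1 TPM, the widest SD of any member.

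The other parts of the base are the scaffolds Psmd1 and Psmd2 and the ubiquitin receptor Psmd4. Psmd2 was at 114 TPM in replicate 1 and 106 TPM in replicate 2 (110 ± 5.14), above Psmd4 (69.3 ± 3.10) by the bounds of both libraries. Psmd1, its partner scaffold, was lowest at 58.8 and 55.8 TPM (57.3 ± 2.11). The scaffolds thus differed in level although both are part of every cap. By the second quantifier Psmd2 was at 81.5 ± 0.223 TPM and Psmd1 at 55.2 ± 2.41. Another ubiquitin receptor of the cap, which does not carry a Psm symbol, Adrm1, was at 50.9 ± 3.92 TPM.

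The 8 lid genes were the tightest of the larger groups, with a coefficient of variation of 16.6%. The highest was Psmd8, at 67.2 TPM in replicate 1 and 56.4 TPM in replicate 2 (61.8 ± 7.59). Psmd14, the enzyme that cuts the ubiquitin chain from the arriving protein, was at 54.4 and 54.5 TPM. Psmd3, Psmd6, Psmd7, Psmd11 and Psmd13 had means between 51.4 and 58.3 TPM. The lowest was Psmd12, at 31.5 and 34.4 TPM (32.9 ± 2.04), the 1 lid gene that the bounds set apart from its neighbour, Psmd7. A further small lid part, Sem1, was at 17.2 ± 0.120 TPM.

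The products of the 7 chaperones with a Psm symbol help to build the particle and leave it afterwards. By the first quantifier, their genes had lower means than the 31 constitutive subunits with such a symbol. By the second, Psmd5 was at 25.7 TPM, above the core gene Psma2 at 24.3 TPM. The cap chaperone Psmd5 was at 22.0 TPM in replicate 1 and 22.2 TPM in replicate 2 (22.1 ± 0.170), Psmd9 at 13.3 and 10.6 TPM, and Psmd10, also called gankyrin, at 9.29 and 7.31 TPM (8.30 ± 1.40). These 3 separated from each other by their bounds. The core chaperones Psmg1 to Psmg4 had means between 8.78 and 11.5 TPM. Their highest mean was that of Psmg2, at 13.4 and 9.67 TPM (11.5 ± 2.63), and the lowest that of Psmg3, at 9.12 and 8.44 TPM (8.78 ± 0.481), and none of the 3 steps among them was resolved. Pomp, the core maturation factor that carries another name, was at 67.0 ± 5.40 TPM, at the level of the subunits. Akirin2, which helps to bring proteasomes into the nucleus, was at 46.3 ± 2.35 TPM.

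Alternative caps open the core without ATPases. Psme3, the nuclear member, was highest at 60.6 TPM in replicate 1 and 60.9 TPM in replicate 2 (60.7 ± 0.247). Psme1 and Psme2, the interferon-responsive pair that assemble together, were at 29.9 ± 1.97 and 27.0 ± 1.58 TPM, with overlapping bounds. Psme3 was 2.13-fold and 1.95-fold above Psme1, and its bounds lay above in both libraries. Psme4, a large single-chain activator known for the breakdown of acetylated histones, was at 22.7 and 17.7 TPM (20.2 ± 3.56). Psmf1, named as an inhibitor of the core, was at 16.0 and 17.3 TPM (16.7 ± 0.912). Psme1 overlaps Emc9 on the opposite strand, at 26.7 and 17.9 TPM.

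The members below 1 TPM were Psma8, Psmb11 and Psme2b. Psma8, an alpha subunit of the testis, was listed at 0.23 TPM in replicate 1 and 0.28 TPM in replicate 2, from 3 and 5 counts, and both values lay below their own deposited bounds (0.348 to 1.68 and 0.318 to 1.30 TPM). Psmb11, a cutting subunit of the thymus cortex, was at 0.25 and 0.52 TPM, from 7 and 10 counts. Psme2b, a single-exon copy of Psme2, was at 0.25 and 0.41 TPM from 2.60 and 5.81 estimated counts, and the second quantifier gave it 0. Reads of Psme2b cannot be told with certainty from those of Psme2 or of the gene 9930111J21Rik1, which overlaps it on the same strand. Psmc3ip matched the symbol rule only by name: its product is a factor of meiotic recombination that binds the ATPase Psmc3. It was at 1.89 and 1.09 TPM (1.49 ± 0.566), with 25.4% and 30.3% on its protein_coding transcript, and it overlaps Mlx on the opposite strand.

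The libraries were compared with edgeR, fitted on 16123 genes that reached a CPM of 1 in 1 library or both, where CPM is the count after scaling by library size. Of these, 130 genes (0.806%) were called at a Benjamini-Hochberg adjusted p under 0.05, while the unadjusted p was under 0.05 in 778. Of the 50 members, 44 were tested, and Psma8, Psmb8, Psmb9, Psmb11, Psmc3ip and Psme2b were too low. None of the 44 was called, and 0 had an unadjusted p under 0.05. The spread used by the test was estimated from the same 2 libraries. The test thus picks out genes that differ more than others of similar count. A missed threshold does not show that the levels were alike. In simulated libraries the test called 4% of genes set 2-fold apart and 71.2% of those set 4-fold apart. The comparison is of these 2 libraries, in which animal, dissection and preparation cannot be told apart.

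Most members differed by less than 1.5-fold between the libraries. Of the 44 tested, 43 were within 1.5-fold (97.7%), against 85.9% of all tested genes. Many of the latter are lower in count, and with a minimum CPM of 5 the shares were 42 of 42 and 94.9%. The median size of the log2 ratio, without its sign, was 0.17426 for the members and 0.18554 for all tested genes. With the minimum CPM of 5 it was 0.15722 and 0.14965, so there the members were not closer between the libraries than all genes by this measure. With scaling by the spike-ins it was 0.085961 and 0.26618. The median log2 ratio of replicate 2 over replicate 1 was 0.16 for the members and 0.00 for all genes, with 36 members above 0 and 8 below. With scaling by the spike-ins, the medians were −0.07 and −0.23, with 8 members above 0 and 36 below, so the sign of most members follows the scaling. The distance of the members from the median gene was 0.16 under both. This shift was not particular to the members. Under the first scaling the median was 0.17 for excitatory neuron, 0.19 for microglia and 0.26 for inhibitory neuron markers. It was 0.05 for endothelial markers, and of the marker lists only that of red blood cells was below 0, at −0.32. By role, 14 of 14 constitutive core genes and 15 of 17 cap genes were above 0 under the first scaling, and 2 and 3 under the spike-ins. By TPM, the medians in replicates 1 and 2 were 69.4 and 68.9 for the core genes and 58.8 and 56.6 for the cap genes. Their summed TPM was 999 and 1041 for the core and 1094 and 1098 for the cap. The 7 assembly chaperones had a median log2 ratio of −0.11 with 2 above 0 and 5 below (spike-ins −0.34, with 1 above). The second quantifier gave 0.03 with 4 above and 3 below.

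**Figure D4:**
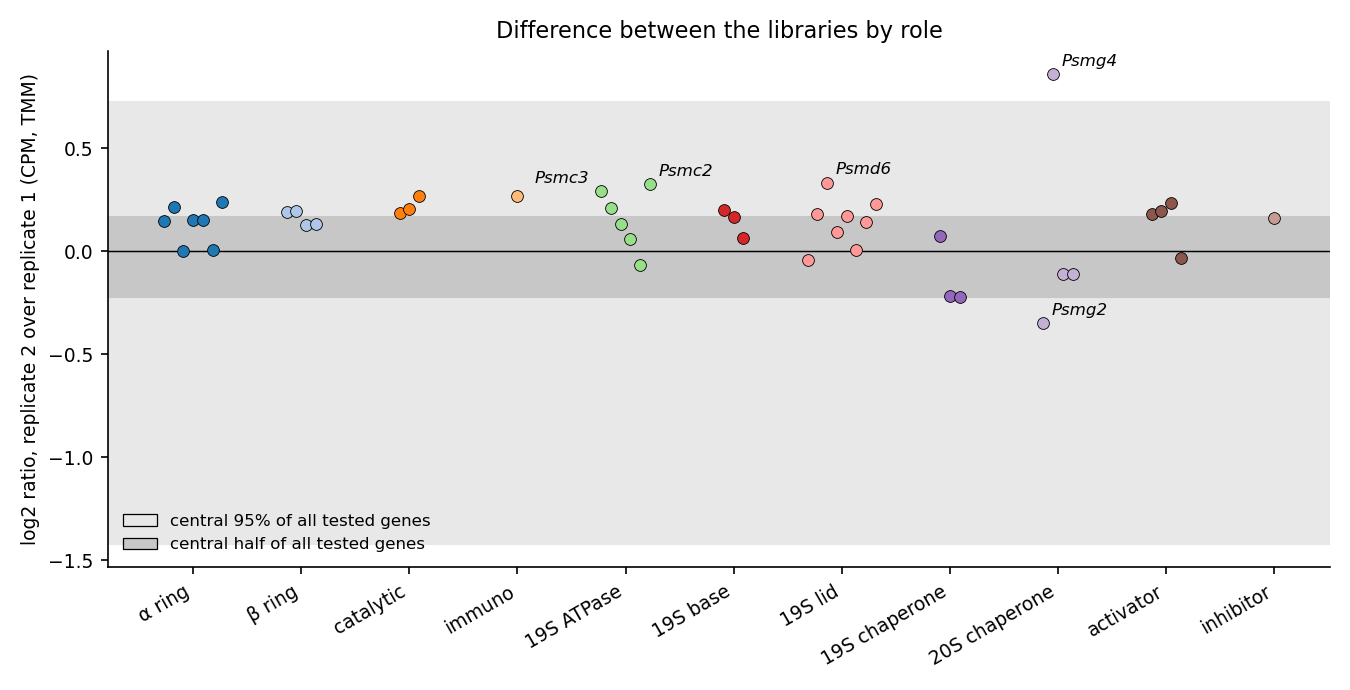
Log2 ratio of replicate 2 over replicate 1, from CPM after TMM scaling, for the 44 tested members by role; each point is a gene, with genes of higher level to the left within a role. The dark band holds the central 50% of all tested genes (−0.22 to 0.16) and the light band the central 95% (−1.42 to 0.73). Psmg4 is the member outside the light band.

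The largest difference was that of Psmg4, a chaperone of alpha-ring assembly. It was at 7.18 TPM in replicate 1 and 12.4 TPM in replicate 2 (9.77 ± 3.66), from 44 and 101 counts. Its log2 ratio was 0.86, with an edgeR adjusted p of 1.00 (unadjusted 0.232). Its partner Psmg3 was at 9.12 and 8.44 TPM. The next in size were Psmg2, which pairs with Psmg1, with a log2 ratio of −0.35 (unadjusted p 0.475 in edgeR), the lid gene Psmd6 with 0.33 (0.143), the ATPase Psmc2 with 0.32 (0.124) and the ATPase Psmc3 with 0.29 (0.154). The adjusted p was 1.00 for each of these. Psmd6 was at 54.5 and 60.4 TPM in replicates 1 and 2. Under the spike-in scaling these 5 kept their signs, with log2 ratios of 0.64, −0.58, 0.10, 0.09 and 0.06 in the same order.

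Genes that act before and around the particle were present as well. The ubiquitin gene Ubb was at 917 ± 28.1 TPM, and Uba1, the main enzyme that activates ubiquitin, at 189 ± 8.22. Of 14 ubiquitin enzymes and shuttle proteins that bind the proteasome, 13 were at 1 TPM or more in both libraries, with a median of 48.8 TPM over the 14. Among them, Usp14, the deubiquitinase of the cap, was at 85.8 ± 0.269 TPM, the shuttle Ubqln1 at 75.3 ± 6.05 and the shuttle Ubqln2 at 104 ± 0.820, whereas Ddi1 was listed at 0. None of the 13 tested was called between the libraries.

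The transcription factor that raises proteasome genes when proteasome activity falls, Nfe2l1, was at 115 TPM in replicate 1 and 131 TPM in replicate 2 (123 ± 11.4). Its relative Nfe2l2, known for the oxidative stress response, was at 6.91 ± 0.205 TPM. Vcp, the segregase that helps to free the Nfe2l1 protein from the endoplasmic reticulum, was at 86.1 ± 0.552 TPM. Ddi2, the protease that cuts the Nfe2l1 protein, was at 21.9 ± 2.98 TPM, and Ngly1, which removes its sugars, at 15.3 ± 1.88. All 10 genes of the list of proteasome gene regulators with Vcp, which does not hold Ddi2, were at 1 TPM or more in both libraries, and none was called between them.

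RefSeq windows of 300 bases around the start site were found for 42 of the 50 members, without Psma8, Psmb1, Psmb2, Psmb7, Psmc3, Psmd3, Psmd7 and Psmg2. The start site lay within 100 bases of the GENCODE start used for the counts in 32 of them; in Psmb8 and Psmb9 it lay 474 and 434 bases downstream, so their windows are not shown. Both strands were searched, and the capitals of different motifs did not overlap in the windows printed above. The antioxidant response element TGACNNNGC was in 6 of 42 members (14.3%), namely Psmb5, Psmb6, Psmc6, Psmd12, Psmd9 and Psme4. It was in 14.0% of all 27025 genes with a window and in 16.7% of the 10150 detected genes with one. The ETS factor motif CCGGAAG was in 15 members (35.7%), against 9.93% of all and 19.2% of detected genes. Of these 15, 9 code for cap subunits and 1, Psma6, for a core subunit. Windows were lacking for Psmc3, Psmd3 and Psmd7 of the 17 cap genes. They were also lacking for Psmb1, Psmb2 and Psmb7 of the 14 constitutive core genes. The split by role was not tested.

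The other motifs differed less or were rarer. The NRF1 motif (GCGCA, any base, then GCGC) was in 7 members (16.7%), against 5.19% and 11.3%. The NF-Y motif CCAAT was in 15 (35.7%), against 41.1% and 42.8%, and the SP1 motif GGGCGG in 23 (54.8%), against 38.2% and 69.9%. The interferon-stimulated response element (GAAA, any 2 bases, then GAAA) was in 5 (11.9%), namely Psmb3, Psmd4, Psmd9, Psme1 and Psmg4, against 3.99% and 3.45%. The gamma-activated site TTCNNNGAA was in 3 (7.14%), namely Psmb8, Psmd2 and Psmg1, against 9.55% and 8.05%. These shares are descriptions of letters in fixed windows, with no test.

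The members lay on 16 chromosomes, so few shared a neighbourhood. Within 100000 bases of each other were Psmb5 and Psmb11 on chromosome 14 (3410 bases apart), Psme1 and Psme2 on chromosome 14 (5911 bases) and Psmb9 and Psmb8 on chromosome 17 (9956 bases). Each of these pairs lies on opposite strands. Some members overlap other expressed genes: Psmb7 shares its locus with Nek6 (16.8 and 18.5 TPM) and Psmc3 with Slc39a13 (17.6 and 12.6 TPM), both on the opposite strand, and Psmd1 with Gm21972 (3.62 and 2.70 TPM) on the same strand. Levels differed within 1 of the pairs: Psmb5 was at 91.8 TPM and Psmb11 at 0.385 TPM, whereas Psme1 with Psme2, and Psmb9 with Psmb8, had overlapping bounds. The leading transcript of the 47 detected members had a median of 1332 bases and 8 exons, against 2799 bases and 8 exons over all detected genes with a protein_coding transcript.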

How the data were processed

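Total RNA of 2 hippocampal samples was sequenced, 1 library per animal. For each, the authors deposited gene-level values and 2 sets of transcript values, on mm10 with GENCODE M21 per the submitters' processing notes. Gene values and the first transcript set hold expected counts (estimated counts of reads), TPM and TPM bounds, which the authors deposited with no stated level. The second transcript set holds estimated counts and TPM from the authors' other quantifier, deposited per transcript and summed per gene here. Which programs made them was not given in the sources used here. README notes of the files were not used for values.

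Members, roles and gene lists were chosen with earlier results of these data known. Levels are mean and SD of TPM, and a gene was detected at 1 TPM or more. Neighbours in level were called apart where their bounds did not overlap in both libraries. The named genes are the 6 cutting subunits, the highest and lowest of each role, the 5 largest library differences, members under 1 TPM, those whose quantifiers differed over 1.5-fold in both libraries (1 gene, Psme2b), and those with under 50% protein_coding TPM in both. The library test used edgeR 4.0.16 in R 4.3.3 on rounded expected counts with TMM scaling, an intercept alone, trended dispersion and residual deviance against chi-square with 1 degree of freedom. P-values were Benjamini-Hochberg adjusted over all tested genes, and they measure only these 2 libraries. Log2 ratios used a prior count of 2. The test was checked on simulated data. There it called 10 of 250 genes set 2-fold apart (4%) and 178 of 250 set 4-fold apart (71.2%). Shares of counts carry 95% Wilson intervals. Alternatives were other scalings (including 21 spike-ins), filters, dispersion, quantifier, coding transcripts alone and each library alone. Python 3.11.15 and pandas 2.3.3 made the tables.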

Additional observations from a re-analysis of the deposited data

How the results depend on the processing

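No paired analysis was possible because both libraries belong to 1 group. Over 7 alternatives of the library test, 0 proteasome genes were called and 0 had an unadjusted p under 0.05 in edgeR; their lowest adjusted p was 0.71, with a common dispersion, under which 341 genes of the whole table were called against 130. Without a count filter all 50 members were tested. None of the 5 named log2 ratios changed sign, but the median over the members went from 0.16 to −0.07 with spike-in scaling; Psmg4 was not tested at a CPM minimum of 5. By the second quantifier, the median level was 48.5 TPM against 53.2, the coefficient of variation of core and cap 41.2% against 32.7%, the summed immune to constitutive ratio 14.2% against 12.4%, Psmb10 over Psmb7 34.5% against 32.4%, and the median protein_coding share 87.0% against 91.0%. With protein_coding transcripts alone, the summed ratio was 3.84%, Psmb8 over Psmb5 1.06% against 1.95%, and Psmb10 over Psmb7 8.37%. Over 50 member levels, 13 moved by less than the SD of the 2 libraries under the second quantifier, 28 were lower and 9 higher. Each library alone gave 52.4 to 54.4 TPM for the median level and 12.4% for the summed ratio, and 47 members were detected; at 2 TPM, 44 were. With 21 to 29 counts each, Psmb8 and Psmb9 could not be ranked or resolved into transcripts. The causes of these shifts were not tested.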

Other observations

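The 2 quantifiers divided the reads of a few members differently between transcripts. For Psma3, the protein_coding transcript Psma3-204, of 859 bases, held 527 and 363 counts in replicates 1 and 2 by the first quantifier and less than 1 count in each by the second. The second placed 46.4% and 57.1% of the Psma3 TPM on Psma3-208, an incomplete protein_coding transcript of 312 bases, against 22.2% and 29.0% by the first. For Psmd13, Psmd13-208 held 31.0% and 33.2% by the first quantifier and 11.3% and 11.2% by the second, while Psmd13-201 held 5.77% and 9.06% against 19.3% and 25.2%. In Psmb4 the retained-intron transcript Psmb4-203, of 292 bases, held 4.73% and 12.2% by the first and 22.7% and 26.3% by the second. In Psmc3ip the nonsense-mediated decay transcript Psmc3ip-204 held 57.7% in replicate 1 and 0 in replicate 2 by the first quantifier, from 8.71 and 0 counts. The gene levels of Psmd13, Psmb4, Psma3 and Psmc3ip differed by less than 1.5-fold between the quantifiers in both libraries.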
